A study of Mus musculus with 8 samples.

Results

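Messenger RNA of the 3 small Maf transcription factors (Mafk, Maff and Mafg), of Nfe2l2, which encodes their partner Nrf2, of Keap1, and of 5 target genes of Nrf2 (Nqo1, Hmox1, Gclc, Gclm and Txnrd1) was followed through 8 RNA sequencing libraries of Lgr5-traced hair follicle cells taken after skin injury. The 10 genes were picked by name from 46078 genes listed, with earlier results on the difference between the conditions known. All 10 passed the filter on low counts, which 16495 genes passed in all. Values of the 10 genes in the contrast between conditions are therefore given as descriptions, without a test, and tests are kept for the difference between experiments and for other genes of the pathway.

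The labels give the mice as Lg5-egfp-ires-creert2/R26-tdTomato. In this combination a Cre recombinase that needs an inducing drug is driven from the Lgr5 gene, and the red reporter it switches on stays on in the progeny of the cells. All 8 libraries came from injured skin and carry both alleles, and 4 are labelled Treg-sufficient and 4 Treg-depleted, for the presence or absence of regulatory T cells. Experiment 1 holds replicates 1 and 2 of either condition, and experiment 2 holds replicates 3 and 4. The age of the mice, the way regulatory T cells were removed, the kind of injury and the time after it were not given in the sources used here, and there is no uninjured group among these samples. Since nothing in the labels ties a replicate to an animal of its own, p-values measure only the spread between these libraries, which may be technical in part.

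Nrf2 is a transcription factor that binds DNA as a pair with a small Maf protein, at a site called the antioxidant response element, and switches on genes of glutathione synthesis, thioredoxin reduction, quinone reduction and haem breakdown. Small Maf proteins carry no activation domain of their own: paired with Nrf2 they activate, and paired with each other or with Bach1 or Bach2 they repress. Keap1 holds Nrf2 in the cytoplasm and hands it to the Cul3 ubiquitin ligase, until oxidants or electrophiles modify Keap1 and free Nrf2. Much of this control acts on the Nrf2 protein, which messenger RNA counts do not measure. In skin the pathway is known for protecting keratinocytes against ultraviolet light, chemicals and wounding.

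RefSeq promoter windows of GRCm38.p6 (250 bases before to 50 bases after an annotated start) were on hand for 8 of the 10 genes, and Hmox1 and Gclc were not in that table. They were searched on both strands for the core of the antioxidant response element, TGACNNNGC, because it is the site that the Nrf2 and small Maf pair is known to bind. Of the 8 genes, 6 held a match in at least 1 window: all 3 small Maf genes, Nfe2l2, Gclm and Txnrd1. Over all 27025 genes of the table, 14.0% held one, and over all 32851 windows 12.4%; Maff and Txnrd1 have several windows, which gives them more chances. The 6 matches are shown with 10 bases on either side, each on the strand of its gene, with the match in capitals.
Mafk: gatcccggaaGCGGTGTCAgtactgggga
Maff: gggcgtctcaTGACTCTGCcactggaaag
Mafg: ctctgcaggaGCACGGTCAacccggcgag
Nfe2l2: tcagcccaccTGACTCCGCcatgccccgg
Gclm: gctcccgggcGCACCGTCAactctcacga
Txnrd1: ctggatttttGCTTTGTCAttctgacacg

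The Mafk stretch, at chr5:139791513-139791541 on the plus strand, begins at the first base of the GENCODE gene model, and its match lies 13 bases before the RefSeq start. The Maff stretch, at chr15:79346499-79346527 on the plus strand, lies upstream of the gene model, 112 bases before the RefSeq start. The Mafg stretch (chr11:120633751-120633779, minus strand), the Nfe2l2 stretch (chr2:75704885-75704913, minus strand) and the Gclm stretch (chr3:122245413-122245441, plus strand) are also upstream of their gene models, while that of Txnrd1 (chr10:82859104-82859132, plus strand) lies inside its gene model, before an internal start. Among the 6 matches, those of Maff and Nfe2l2 carry the core on the strand of the gene, and the other 4 show its reverse complement.

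Nqo1 and Keap1 held no match to TGACNNNGC in these windows. The AP-1 site TGACTCA and the Maf recognition core TGCTGAC were in 0 of the 8 genes, against 5.95% and 5.28% of all genes. The cyclic AMP response element TGACGTCA, which 2.03% of all genes held, was in 1 of the 8. It lies 29 bases before a start inside the Maff gene model, at chr15:79347481-79347508 on the plus strand, and is shown because Maff differed most in level between libraries among the small Maf genes.
Maff, internal start: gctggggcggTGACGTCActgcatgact
A match describes letters in a window and does not show that a factor binds there.

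Totals over genes ran from 22330729 to 29975347 counts per library. Lgr5, Krt14 and Epcam, which mark follicle and basal epithelial cells, were read in every library, and Ptprc, the leukocyte marker, had at most 11 counts. Treg-depleted replicate 2 and Treg-sufficient replicate 3 had the fewest genes detected, 18605 and 19593, against 21720 to 23062 in the other 6 libraries. Xist, transcribed only from an inactive X chromosome, stood at 2713 CPM (counts per gene, scaled to a common library size) in Treg-sufficient replicate 2 and 72.0 CPM in Treg-depleted replicate 2, and at 0.968 to 2.26 CPM in the other 6. Both Xist libraries belong to experiment 1.

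Per kilobase of exon, which allows levels to be compared between genes, Nqo1 had the highest mean of the 10 genes at 33.3 ± 13.4 CPM per kb (SD, n = 8). Nfe2l2 followed at 29.1 ± 7.61 CPM per kb and Gclc at 28.8 ± 10.5 CPM per kb, and these 3 levels did not differ beyond their spread. Txnrd1 (18.8 ± 6.93), Gclm (14.9 ± 1.86), Mafg (12.4 ± 0.928), Mafk (11.1 ± 3.17) and Keap1 (9.45 ± 1.19 CPM per kb) lay in the middle. Maff at 5.23 ± 3.11 CPM per kb and Hmox1 at 4.13 ± 1.37 CPM per kb were lowest. The ranges of all neighbours in this order overlapped. Gclc was above Txnrd1, and Gclm above Mafg, in 8 of 8 libraries. Mafg was thus the most abundant small Maf message per length on average, above Mafk in 5 of 8 libraries, and Maff the least abundant on average.

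**Figure D1:**
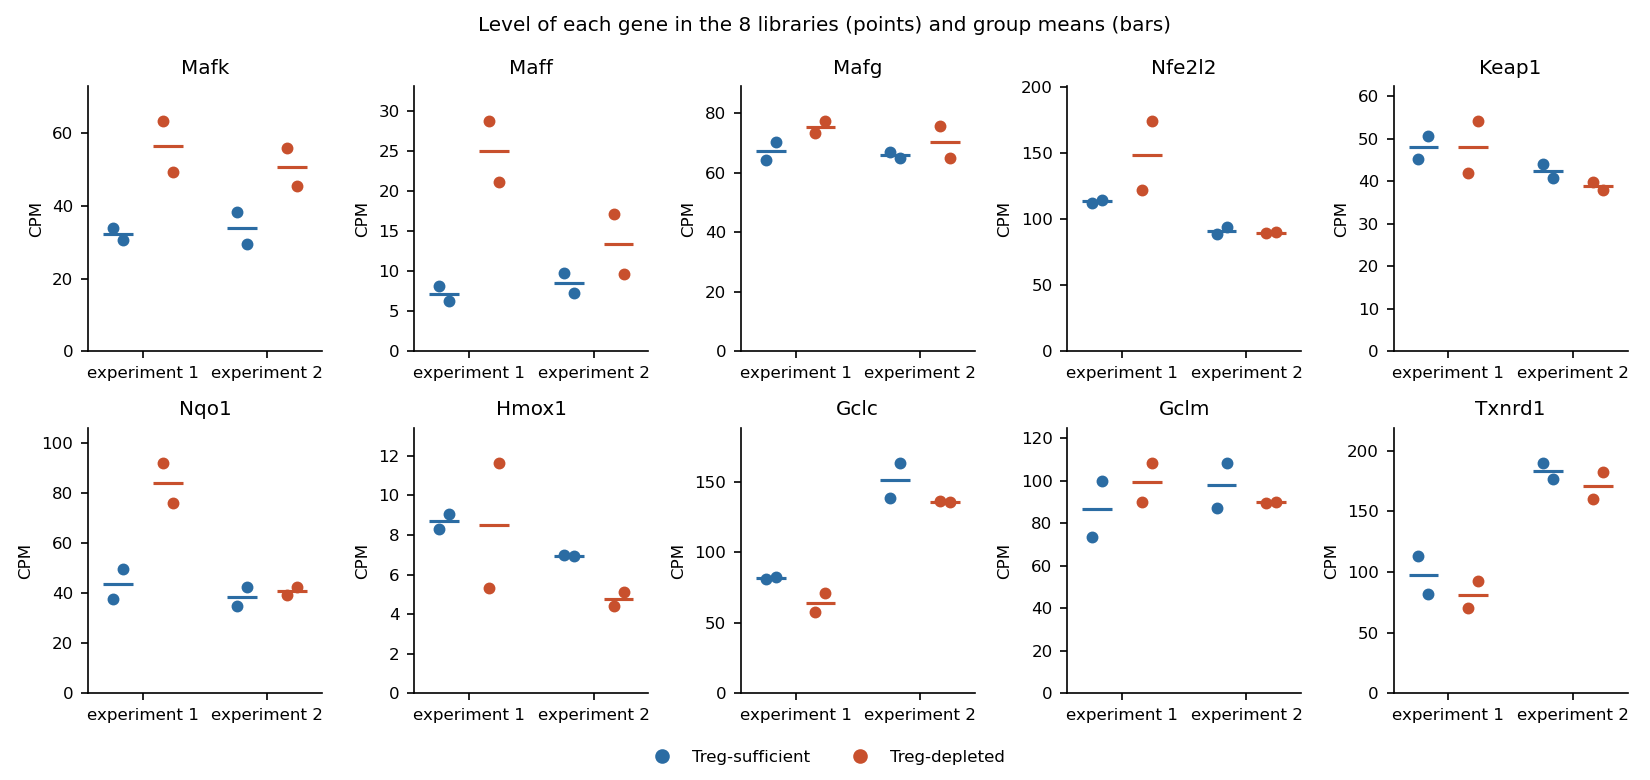
Level of each of the 10 genes in CPM on scaled library sizes (vertical axes, from 0, on a scale of their own per panel) in the 2 experiments, with Treg-sufficient libraries in blue, Treg-depleted libraries in orange, points for libraries and bars for means of 2 libraries. Mafk is the one gene whose 4 Treg-depleted libraries all lie above its 4 Treg-sufficient libraries, and Gclc and Txnrd1 are higher in experiment 2.

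Mafk (ENSMUSG00000018143, chromosome 5, 139791513 to 139802653, plus strand, GRCm38) was higher in every Treg-depleted library than in every Treg-sufficient one. It stood at 33.9, 30.7, 38.2 and 29.5 CPM in Treg-sufficient replicates 1 to 4 and at 63.5, 49.3, 55.9 and 45.5 CPM in Treg-depleted replicates 1 to 4. The groups did not overlap, and the lowest Treg-depleted library was replicate 4. Means were 33.1 ± 3.92 and 53.5 ± 7.91 CPM (SD, n = 4 each), a log2 fold change of 0.69 with a standard error (SE) of 0.14. The difference was present in both experiments, with 0.81 (SE 0.20) in experiment 1 and 0.58 (SE 0.20) in experiment 2 on the log2 scale. Of all 16495 genes, 1.27% had all 4 Treg-depleted libraries above all 4 Treg-sufficient ones, and Mafk was the 1 of the 10 genes that did. The looser pattern of 4 Treg-depleted libraries each above both Treg-sufficient libraries of its own experiment was met by 3.79% of all genes and again by Mafk alone of the 10. Since it was chosen with this contrast known, nothing is read from these counts. The Mafk gene model overlaps Tmem184a on the opposite strand, which had 125 to 402 counts per library against 890 to 1847 for Mafk, and the strand setting of the counting is not given in the sources used here. In bulk samples such as these, a difference in the number of cells of a type and a difference in RNA per cell cannot be told apart.

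Maff (ENSMUSG00000042622, chromosome 15, 79346621 to 79359076, plus strand) was the small Maf gene with the widest range. It stood at 8.21, 6.25, 9.80 and 7.32 CPM in Treg-sufficient replicates 1 to 4 and at 28.8, 21.2, 17.2 and 9.62 CPM in Treg-depleted replicates 1 to 4. The groups overlapped through a single library, Treg-depleted replicate 4, which fell below Treg-sufficient replicate 3, while both Treg-depleted libraries of experiment 1 were above all Treg-sufficient libraries. Means were 7.89 ± 1.5 and 19.2 ± 8.02 CPM (SD, n = 4 each), a log2 fold change of 1.22 (SE 0.30). On the log2 scale the difference was 1.79 (SE 0.34) in experiment 1 and 0.65 (SE 0.33) in experiment 2, where it was 0.17 without Treg-depleted replicate 3 and 1.01 without Treg-depleted replicate 4. These values rest on 183 to 839 counts per library.

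Mafg (ENSMUSG00000051510, chromosome 11, 120625117 to 120633600, minus strand) varied least of the small Maf genes. It stood at 64.4, 70.4, 67.1 and 65.0 CPM in Treg-sufficient replicates 1 to 4 and at 73.4, 77.5, 75.6 and 65.0 CPM in Treg-depleted replicates 1 to 4. Treg-depleted replicates 1 to 3 were above all Treg-sufficient libraries and replicate 4 was not. Means were 66.7 ± 2.69 and 72.9 ± 5.54 CPM (SD, n = 4 each), a log2 fold change of 0.13 (SE 0.09). The Mafg gene model overlaps Sirt7 on the same strand, which had 852 to 1359 counts per library, and reads that overlapped several genes were tallied apart from the gene counts.

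After the mean of each experiment was taken out, Mafk and Maff ran together over the 8 libraries, with a Pearson correlation of log2 CPM of 0.946. Mafg was most like Maff of the other 9 genes, with 0.745. Over 10045 genes with a mean of at least 10 CPM, the gene most like Mafk was Nr1d1, which encodes the circadian repressor Rev-erb alpha, with a correlation of 0.980. Nr1d1 stood at 18.9, 13.0, 9.88 and 7.48 CPM in Treg-sufficient replicates 1 to 4 and at 79.7, 32.8, 28.9 and 16.9 CPM in Treg-depleted replicates 1 to 4. It thus overlapped between the groups through Treg-depleted replicate 4. Phykpl (0.971), an enzyme of hydroxylysine breakdown, Slc43a1 (0.947), an amino acid transporter, Tcf12 (0.946), a bHLH transcription factor, and Mef2d (0.946), a MADS box transcription factor, came next. These correlations describe 8 libraries that share their condition, depth and handling, and the difference between conditions is part of them.

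Genes of the immediate early and dissociation stress response, such as Fos, Jun, Egr1 and Atf3, were summed as a list chosen with earlier results of these data known, so that the sum is a description like the values of the 10 genes. The sum over 28 such genes, none of them at 0 in any library, was 2059 to 5818 CPM in Treg-sufficient libraries and 6918 to 14517 CPM in Treg-depleted libraries, without overlap. It was 4461 and 2059 CPM in Treg-sufficient replicates 1 and 2 against 14517 and 10265 CPM in Treg-depleted replicates 1 and 2. In experiment 2 it was 4796 and 5818 CPM against 8495 and 6918 CPM. Of the 28 genes, 26 had a positive log2 fold change between conditions, with a median of 1.00, against a median of 0.00 over all genes. The part of this response in the Mafk and Maff values was not tested.

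Some marker sums of other cell types were also apart between the conditions within an experiment, and none passed after adjustment. The fibroblast sum was apart in both experiments. Sums of differentiated epidermis and of endothelial markers (4.58 and 5.03 against 2.46 and 2.96 CPM) were apart in experiment 1 only. Macrophage sums (4.32 and 4.24 against 4.88 and 5.81 CPM) and red cell sums (3.04 and 1.00 against 0.848 and 0.578 CPM) were apart in experiment 2 only. Endothelial, macrophage and red cell sums were low, with several markers at 0 in at least 1 library. Summed fibroblast markers stood at 118, 53.6, 142 and 135 CPM in Treg-sufficient replicates 1 to 4 and at 35.1, 43.6, 113 and 94.0 CPM in Treg-depleted replicates 1 to 4, lower in each Treg-depleted library than in both Treg-sufficient libraries of its experiment. Of the 9 fibroblast markers, Lum and Dpt were at 0 in at least 1 library. Among the 8 tested, 6 had negative and 2 positive log2 fold changes in experiment 1, with a median of -1.14. In experiment 2 they split into 4 positive and 4 negative, with a median of -0.08, so the lower sum there was not shared by all markers. For the fibroblast sum, with exchanges within experiments, the two-sided exact permutation p was 0.0556, the smallest possible. After Benjamini-Hochberg adjustment over 12 marker lists it was 0.333. Summed markers of differentiated epidermis stood at 2076 and 1821 against 1196 and 695 CPM in experiment 1, where all 8 tested genes had negative log2 fold changes with a median of -1.20, and at 713 and 1006 against 1183 and 929 CPM in experiment 2, with overlap. Of those markers, Flg was at 0 in at least 1 library. In experiment 2, 5 of the 8 tested genes had positive log2 fold changes, with a median of 0.52. For the epidermis sum, with exchanges within experiments, the two-sided exact permutation p was 0.278 (adjusted 0.556). The part of these markers in the values of the 10 genes and of Bach1 was not tested.

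**Figure D2:**
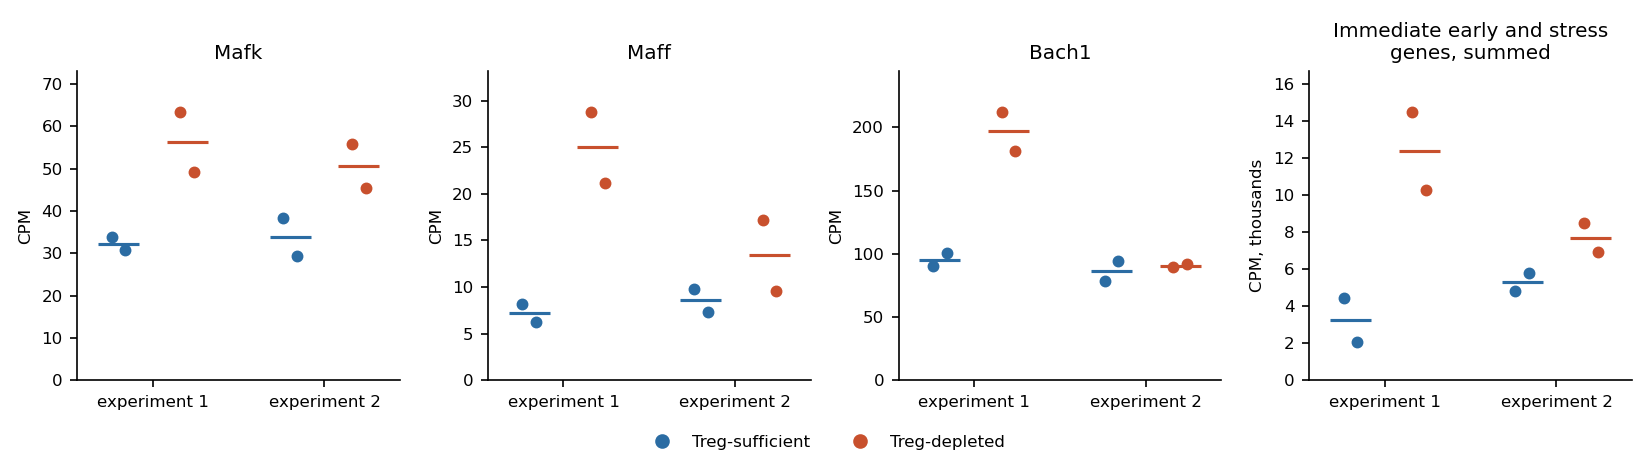
Levels of Mafk, Maff and Bach1 in CPM on scaled library sizes, and of the summed immediate early and stress genes in CPM on unscaled totals (axis unit as marked), by experiment (horizontal axis), with points for libraries and bars for means of 2 libraries. All 4 panels show higher Treg-depleted libraries (orange) in experiment 1, and Bach1 shows overlapping groups in experiment 2.

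Nfe2l2 (ENSMUSG00000015839, chromosome 2, 75675513 to 75704641, minus strand) differed little between the conditions outside a single library. It stood at 112, 114, 88.6 and 93.8 CPM in Treg-sufficient replicates 1 to 4 and at 122, 174, 89.1 and 90.3 CPM in Treg-depleted replicates 1 to 4. Treg-depleted replicate 2 was the highest, and both libraries of either condition were lower in experiment 2 than in experiment 1. Means were 102 ± 13.0 and 119 ± 39.9 CPM (SD, n = 4 each), a log2 fold change of 0.18 (SE 0.14), and 0.0064 without both Xist libraries. Within experiment 1 it was 0.38 (SE 0.17) but 0.07 without Treg-depleted replicate 2 and 0.60 without Treg-depleted replicate 1, and within experiment 2 it was -0.02 (SE 0.17).

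Keap1 (ENSMUSG00000003308, chromosome 9, 21229730 to 21239361, minus strand), the inhibitor, stood at 45.2, 50.7, 43.9 and 40.8 CPM in Treg-sufficient replicates 1 to 4 and at 42.0, 54.2, 39.9 and 38.0 CPM in Treg-depleted replicates 1 to 4. The groups overlapped, with the highest value again in Treg-depleted replicate 2. Means were 45.2 ± 4.12 and 43.5 ± 7.32 CPM (SD, n = 4 each), a log2 fold change of -0.06 (SE 0.11).

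The 5 target genes had no common direction between the conditions. Nqo1 was higher in the Treg-depleted libraries of experiment 1, and Gclc was lower in the Treg-depleted libraries of each experiment. Hmox1 was lower in the Treg-depleted libraries of experiment 2 and overlapped in experiment 1. Gclm and Txnrd1 overlapped between the groups in both experiments. The medians over the 10 genes were 0.08 between conditions, 0.18 within experiment 1 and -0.06 within experiment 2 on the log2 scale, against 0.00, 0.01 and 0.00 over all genes tested.

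Nqo1 (ENSMUSG00000003849, chromosome 8, 107388225 to 107403206, minus strand) encodes the quinone reductase that is the usual marker of Nrf2 activity. It stood at 37.6, 49.7, 34.9 and 42.3 CPM in Treg-sufficient replicates 1 to 4 and at 92.0, 75.9, 39.2 and 42.5 CPM in Treg-depleted replicates 1 to 4. Both Treg-depleted libraries of experiment 1 were above all other libraries, and both of experiment 2 lay within the Treg-sufficient range. Within experiment 1 the log2 fold change was 0.94 (SE 0.19), or 1.25 without both Xist libraries, and within experiment 2 it was 0.08 (SE 0.19). Pooled over experiments it was 0.51 (SE 0.19), from means of 41.1 ± 6.46 and 62.4 ± 25.8 CPM (SD, n = 4 each).

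Gclc (ENSMUSG00000032350, chromosome 9, 77754535 to 77794485, plus strand) encodes the catalytic subunit of glutamate-cysteine ligase, the rate-limiting enzyme of glutathione synthesis. It stood at 80.9, 82.4, 139 and 164 CPM in Treg-sufficient replicates 1 to 4 and at 57.6, 71.3, 136 and 136 CPM in Treg-depleted replicates 1 to 4. Each Treg-depleted library lay below both Treg-sufficient libraries of its own experiment, which 3.23% of all genes did in this direction, and both conditions were higher in experiment 2. Over both experiments the log2 fold change was -0.25 (SE 0.10), with -0.34 (SE 0.15) in experiment 1 and -0.15 (SE 0.15) in experiment 2. The value in experiment 1 was -0.54 without Treg-depleted replicate 2 and -0.22 without Treg-depleted replicate 1, and that in experiment 2 ran from -0.27, when Treg-sufficient replicate 3 was left out, to -0.03, when Treg-sufficient replicate 4 was. Gclm (ENSMUSG00000028124, chromosome 3, 122245557 to 122270732, plus strand), which encodes the modifier subunit of the same enzyme, stood at 73.7 to 109 CPM in Treg-sufficient and 89.8 to 108 CPM in Treg-depleted libraries, a log2 fold change of 0.04 (SE 0.14) that ran from -0.08 to 0.13 with 1 library left out. Over the 8 libraries the 2 subunit genes had a correlation of 0.133 after the experiment means were taken out.

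Txnrd1 (ENSMUSG00000020250, chromosome 10, 82833951 to 82897712, plus strand) encodes the cytosolic thioredoxin reductase. It stood at 113, 81.8, 190 and 176 CPM in Treg-sufficient replicates 1 to 4 and at 70.1, 92.7, 160 and 182 CPM in Treg-depleted replicates 1 to 4. The conditions overlapped in each experiment, and every library of experiment 2 was above every library of experiment 1. The log2 fold change between conditions was -0.18 (SE 0.14), with -0.06 without Treg-sufficient replicate 1 and -0.31 without both Xist libraries.

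Hmox1 (ENSMUSG00000005413, chromosome 8, 75093621 to 75100589, plus strand) encodes haem oxygenase 1 and rested on the fewest counts of the 10 genes, 114 to 265 per library. It stood at 8.32, 9.05, 6.98 and 6.92 CPM in Treg-sufficient replicates 1 to 4 and at 5.33, 11.7, 4.42 and 5.15 CPM in Treg-depleted replicates 1 to 4. Treg-depleted replicates 1, 3 and 4 were below all Treg-sufficient libraries and replicate 2 was above them. The log2 fold change was -0.29 (SE 0.26), with -0.62 without Treg-depleted replicate 2 and -0.15 without Treg-depleted replicate 1. Within experiment 1 it was -0.04 and ran from -0.74 to 0.40 with 1 library left out. Within experiment 2 it was -0.54 and ran from -0.65 to -0.43. Macrophages are a known source of Hmox1: of 10 macrophage markers 9 were at 0 in at least 1 library, and the summed level was 4.24 to 5.58 CPM in Treg-sufficient and 2.42 to 5.81 CPM in Treg-depleted libraries.

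Counted by non-overlap within experiments, Mafk, Maff, Mafg, Nfe2l2 and Nqo1 had both Treg-depleted libraries above both Treg-sufficient ones in experiment 1, as 18.6% of all genes did, and Mafk alone of the 10 did so in experiment 2, as 16.7% of all genes did. In the opposite direction the gene was Gclc in experiment 1 (19% of all genes), and the genes were Gclc, Hmox1 and Keap1 in experiment 2 (15.9%). The difference between the effects in experiments 2 and 1 was widest for Maff, at -1.14 (SE 0.47), and Nqo1, at -0.86 (SE 0.27) on the log2 scale. For that difference 5.6% of all genes were under an unadjusted p of 0.05 with edgeR and 48.9% had a positive value. As the 10 genes were chosen with these contrasts known, the counts are descriptions and nothing is read from them.

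**Figure D3:**
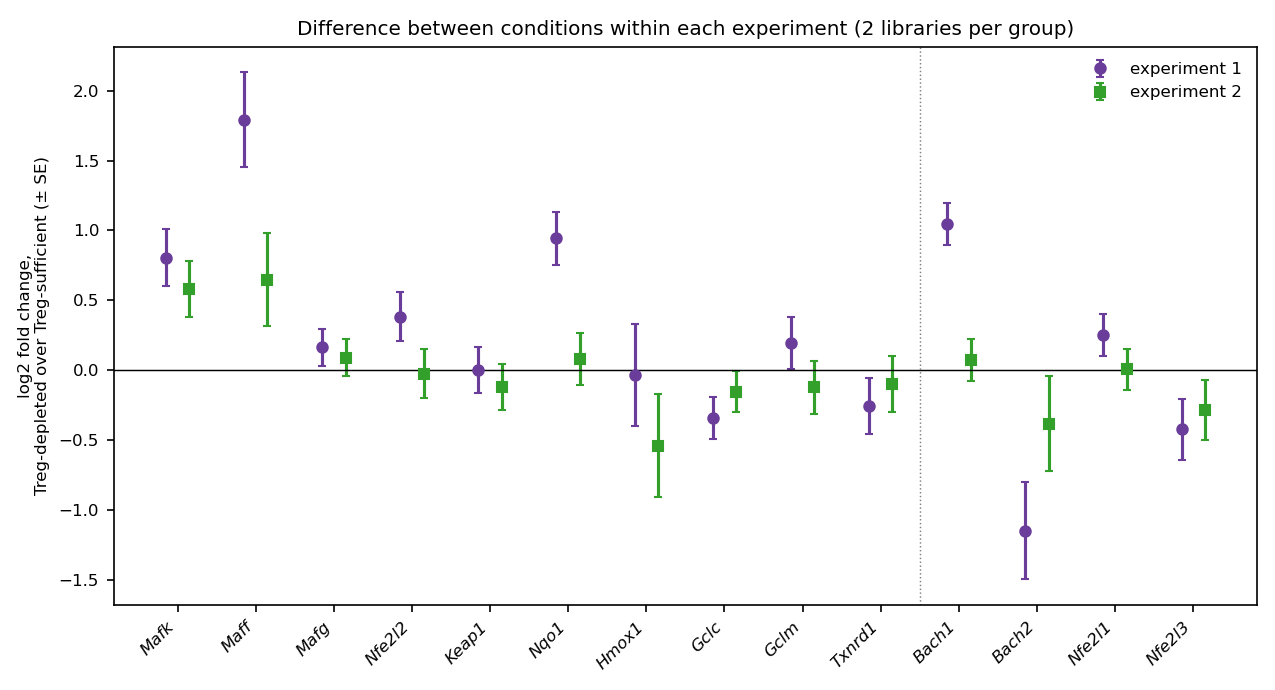
Log2 fold change of Treg-depleted over Treg-sufficient libraries (vertical axis, ± SE, 2 libraries per group) in experiment 1 (purple circles) and experiment 2 (green squares) for the 10 genes and, right of the dotted line, for Bach1, Bach2, Nfe2l1 and Nfe2l3. Maff, Nqo1 and Bach1 lie higher in experiment 1 than in experiment 2, while Mafk is above 0 in both.

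Other genes of the pathway were taken from 7 lists of partners, large Maf factors and target families, 90 genes in all, of which 86 passed the filter on low counts. Between conditions, 0 of the 86 passed an adjusted p of 0.05 with edgeR, 10 were under an unadjusted p of 0.05, and DESeq2 also called 0. Over all 16495 genes, edgeR called 0 (0%), 1175 genes (7.12%) were under an unadjusted p of 0.05, DESeq2 called 84 and limma-voom 0.

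Bach1, the repressor that competes with Nrf2 for small Maf partners, was the 1 of the 86 genes that passed within experiment 1, where 0.606% of all genes passed, 0.224% as higher. It stood at 90.1 and 101 CPM in Treg-sufficient replicates 1 and 2 and at 213 and 182 CPM in Treg-depleted replicates 1 and 2, without overlap. This is a log2 fold change of 1.05 (SE 0.15, edgeR adjusted p = 0.0364). The list that holds Bach1 was chosen with earlier results of these data known, so this p-value is not independent evidence. In experiment 2 it stood at 78.2 and 94.5 CPM against 89.6 and 91.9 CPM, with overlap, and the log2 fold change was 0.07 (SE 0.15). The difference between the experiments' effects was -0.97 (SE 0.21) and did not pass, with an edgeR adjusted p of 0.324. The call in experiment 1 was lost in 7 of 15 alternatives, each of which left out 1 library, with edgeR adjusted p of 0.242 without Treg-sufficient replicate 1, 0.116 without Treg-sufficient replicate 2, and 0.0666 to 0.0915 without Treg-sufficient replicate 3 or 4 or Treg-depleted replicate 1, 3 or 4. The value itself stayed between 0.90 and 1.19 in all 15. The summed immediate early genes were also higher in experiment 1 in the Treg-depleted libraries, and their part in the Bach1 value was not tested.

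Bach2, the related repressor, ran the other way from Bach1 on average. It stood at 61.4, 41.1, 121 and 75.3 CPM in Treg-sufficient replicates 1 to 4 and at 30.2, 15.9, 77.9 and 72.8 CPM in Treg-depleted replicates 1 to 4, with overlap. The log2 fold change between conditions was -0.76 (SE 0.27), which did not pass (edgeR adjusted p = 0.686). The partners Nfe2l1, at 0.13 (SE 0.11), and Nfe2l3, at -0.35 (SE 0.14), and the large Maf factor Maf, at -0.27 (SE 0.20), did not pass either. The regulators of Nrf2 turnover had log2 fold changes between -0.14 (Dpp3, which binds Keap1) and 0.14 (Btrc, a ubiquitin ligase subunit), with Gsk3b at -0.05, Rbx1 at -0.05, Cul3 at 0.01, Sqstm1 at 0.04 and Fbxw11 at 0.05, and 0 of the 11 partners and regulators tested passed.

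Target families lay mostly on the side of lower values between conditions, although no gene of them passed. Of 73 tested genes in the 5 lists of targets, 19 had a positive log2 fold change, against 50.3% of all genes. The number was 35 in experiment 1, against 52% of all genes, and 13 in experiment 2, against 50.2%. In experiment 2, 0 of the 86 passed with edgeR and 1, Gpx2, was under an unadjusted p of 0.05, as 1.75% of all genes were, and DESeq2 called 0. All 7 genes that supply NADPH, among them G6pdx and Pgd of the pentose phosphate pathway, had negative log2 fold changes, with a median of -0.24. Taken within experiments, 6 of the 7 were negative in experiment 1 and 5 of the 7 in experiment 2. Medians were -0.19 over 22 glutathione genes, -0.09 over 14 thioredoxin and peroxide genes, -0.13 over 20 genes of quinone, aldehyde and xenobiotic metabolism and -0.02 over 10 genes of haem and iron handling. The haem and iron genes differed in sign between experiments, with 7 of 10 positive and a median of 0.23 in experiment 1, and all 10 negative with a median of -0.20 in experiment 2. These lists were chosen with earlier results of these data known, and the counts are not independent evidence of a direction.

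The pathway genes with the smallest unadjusted p between conditions, beside Bach1 and Bach2, were Ephx1, Txnip, Gpx2, Sod1, Ces2e and Akr1c13. Ephx1, an epoxide hydrolase, stood at 0.48 (SE 0.14) on the log2 scale, and Txnip, the thioredoxin inhibitor, at 1.12 (SE 0.35). Gpx2, an epithelial glutathione peroxidase, stood at -0.82 (SE 0.26), and Sod1, the cytosolic superoxide dismutase, at -0.34 (SE 0.12). Ces2e, a carboxylesterase, stood at -1.05 (SE 0.39) and Akr1c13, an aldo-keto reductase, at -1.96 (SE 0.76). Ces2e and Akr1c13 rest on low levels, with means of 1.83 and 0.372 CPM, against 18.6 CPM for Gpx2 and 100 CPM for Sod1. With edgeR, adjusted p-values of these 6 genes were 0.686 or 0.692, so none passed. Txnip stood at 257, 441, 177 and 204 CPM in Treg-sufficient replicates 1 to 4 and at 1669, 829, 246 and 254 CPM in Treg-depleted replicates 1 to 4, high in both Treg-depleted libraries of experiment 1. Per kilobase of exon, the most abundant pathway messages were Txn1 at 198, Ftl1 at 173, Prdx1 at 164, Txnip at 163 and Gpx1 at 148 CPM per kb, averaged over all libraries.

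The choice of the 10 genes did not use the difference between the 2 experiments, so it was tested. Gclc and Txnrd1 were higher in experiment 2 and were the 2 of the 10 genes that passed, where 1.62% of all genes passed. Gclc averaged 73.0 ± 11.4 CPM in experiment 1 and 144 ± 13.5 CPM in experiment 2 (SD, n = 4 each), a log2 fold change of 0.98 (SE 0.11, edgeR adjusted p = 0.0439). Txnrd1 averaged 89.3 ± 18.1 and 177 ± 12.8 CPM (SD, n = 4 each), a log2 fold change of 0.99 (SE 0.14, edgeR adjusted p = 0.0439). For both genes all 4 libraries of experiment 2 were above all 4 of experiment 1, as for 7.5% of all genes.

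Both differences kept their direction in 15 of 15 alternatives, with values from 0.90 to 1.12 for Gclc and from 0.90 to 1.11 for Txnrd1, but the calls were often lost. Without Treg-sufficient replicate 2 or 4, or any 1 of the 4 Treg-depleted libraries, neither gene passed (edgeR adjusted p of 0.0615 to 0.141), and without Treg-sufficient replicate 3 Txnrd1 did not (0.0549). Without both Xist libraries, which belong to experiment 1, the adjusted p was 0.203 for both genes, with log2 fold changes of 1.07 for Gclc and 0.98 for Txnrd1. Without both libraries with the fewest genes detected, the adjusted p was 0.0622 for Gclc and 0.0815 for Txnrd1. Melanocyte markers moved with this difference: summed over 7 genes, all tested and none at 0 in any library, they stood at 58.2 to 88.8 CPM in experiment 1 and 130 to 391 CPM in experiment 2. The two-sided exact permutation p for that sum was 0.0286, the smallest possible, and 0.171 after Benjamini-Hochberg adjustment over 12 marker lists. Summed follicle markers stood at 21216 to 33036 CPM in experiment 1 and 17538 to 21769 CPM in experiment 2 (exact permutation p = 0.0571, adjusted 0.229). Of the 14 follicle genes, 6 had positive and 8 negative log2 fold changes between experiments, with a median of -0.17, so the list had no common direction. Summed regulatory T cell markers, of which Foxp3 and Ctla4 were at 0 in at least 1 library and Ikzf2 averaged 12.5 CPM, stood at 23.1 to 57.4 CPM in experiment 1 and 13.7 to 21.9 CPM in experiment 2 (exact permutation p = 0.0286, adjusted 0.171). By condition this sum was 13.7 to 33.4 CPM in Treg-sufficient and 16.4 to 57.4 CPM in Treg-depleted libraries (exact permutation p = 0.457, adjusted 0.784). Ptprc reached at most 0.403 CPM, and the sum is not read as a level of regulatory T cells. Fibroblast sums stood at 35.1 to 118 CPM in experiment 1 and 94.0 to 142 CPM in experiment 2 (exact permutation p = 0.0857, adjusted 0.257). Endothelial sums stood at 2.46 to 5.03 and 4.16 to 11.7 CPM (exact permutation p = 0.114, adjusted 0.274). With exchanges within conditions, melanocyte, follicle, regulatory T cell, fibroblast and endothelial sums all had the smallest possible exact permutation p, 0.0556 (adjusted 0.133). The part of the mix of cells in the Gclc and Txnrd1 values was not tested.

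Nfe2l2 ran in the opposite direction to these targets. It averaged 131 ± 29.3 CPM in experiment 1 and 90.4 ± 2.36 CPM in experiment 2 (SD, n = 4 each), without overlap, as for 5.86% of all genes. The log2 fold change of -0.52 (SE 0.14) did not pass (edgeR adjusted p = 0.0752). Nqo1, at -0.61 (SE 0.19, adjusted p = 0.113), Hmox1, at -0.57 (SE 0.26, adjusted p = 0.244), Maff, at -0.34 (SE 0.30, adjusted p = 0.572), and Keap1, at -0.24 (SE 0.11, adjusted p = 0.251), had negative values that did not pass with edgeR. Mafg (-0.07, SE 0.09), Mafk (-0.04, SE 0.14) and Gclm (0.02, SE 0.14) were closest to 0. The 5 targets thus included 2 that were higher in experiment 2 and 3 that did not pass.

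Among the 86 other pathway genes, 4 passed between experiments with edgeR, 2 in each direction, where 0.903% of all genes passed as higher and 0.721% as lower in experiment 2. Of the 86, 28 had a positive value, against 47.3% of all genes. Gstm1, a glutathione transferase, rose by 0.68 (SE 0.09, adjusted p = 0.0439) on the log2 scale, from 57.9 to 72.3 CPM in experiment 1 to 92.4 to 117 CPM in experiment 2. Nfe2l3, a relative of Nrf2 that also pairs with small Maf proteins, rose by 0.79 (SE 0.14, adjusted p = 0.0476), from 10.6 to 16.6 CPM to 17.5 to 24.1 CPM. Both genes were higher in all 4 libraries of experiment 2 than in any of experiment 1.

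Cbr3, a carbonyl reductase, was lower in experiment 2, with a log2 fold change of -1.19 (SE 0.21, edgeR adjusted p = 0.0457), and so was Ephx1, at -0.75 (SE 0.14, adjusted p = 0.0483). Cbr3 stood at 12.9 to 25.5 CPM in experiment 1 and 6.78 to 8.69 CPM in experiment 2, without overlap, while Ephx1 overlapped between experiments, at 167 to 301 CPM and 107 to 176 CPM. Without Treg-sufficient replicate 2 or 4 or any 1 of the Treg-depleted libraries, none of these 4 genes passed, and without Treg-sufficient replicate 3 only Gstm1 did. Without both Xist libraries none of the 4 passed, with edgeR adjusted p of 0.203 for Gstm1, Nfe2l3 and Cbr3 and 0.221 for Ephx1. Of the remaining genes with the smallest p, Bach2 (1.32, SE 0.27, adjusted p = 0.0517), Txnip (-1.60, SE 0.36, adjusted p = 0.0589), Mgst2 (-1.40, SE 0.32, adjusted p = 0.0600) and Srxn1 (-1.16, SE 0.27, adjusted p = 0.0640) did not pass. Glutathione synthesis, glutathione transfer and thioredoxin reduction thus each had a gene that was higher in experiment 2, while the quinone, aldehyde and xenobiotic list had 2 that were lower. Medians between experiments were -0.31 over the glutathione list, -0.24 over thioredoxin and peroxide genes, -0.23 over haem and iron genes, -0.13 over quinone, aldehyde and xenobiotic genes and -0.02 over both the partners and regulators and the NADPH list, against -0.02 over all genes.

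**Figure D4:**
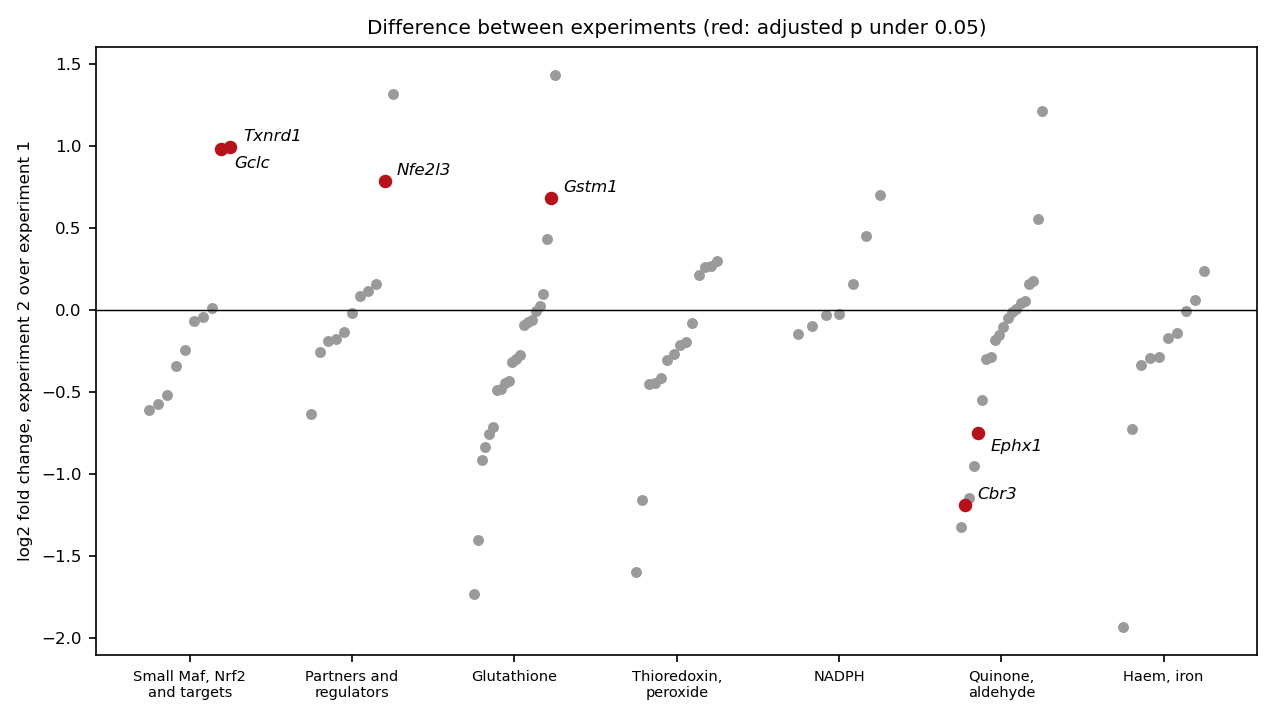
Log2 fold change of experiment 2 over experiment 1 (vertical axis) for the 10 genes and the tested genes of the pathway lists other than large Maf factors (columns), with 1 point per gene, sorted by value within a list, and red for an edgeR adjusted p under 0.05. Gclc, Txnrd1, Nfe2l3 and Gstm1 lie above 0 in red, and Ephx1 and Cbr3 below 0 in red.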

How the data were processed

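The authors deposited 1 table of read counts per gene, not normalized, covering all 8 libraries. The kit was TruSeq Stranded mRNA, which keeps strand, per the labels' protocols. Per the submitters' processing notes, the build was GRCm38.p4 and the tools were HTSeq, SAMtools, DESeq2 and TopHat2 (version 2). Which strand was counted, and with which annotation release, was not given in the sources used here. Reads aligned to several places (26.2 to 30.6% of those listed), in no gene (6.63 to 10.8%) or in several genes (2.72 to 3.01%) were tallied by the authors apart and stayed out of library sizes. At totals of 22330729 counts or more, counting error (1 over the square root of the count) of the 10 genes was at most 9.37%, for Hmox1.

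Symbols and coordinates came from GENCODE M21 (GRCm38), which named 45229 of 46078 identifiers. With R 4.3.3 and edgeR 4.0.16, genes passing filterByExpr (minimum count 10) were scaled by TMM and tested by quasi-likelihood F-test, with Benjamini-Hochberg adjustment over 16495 genes and a threshold of 0.05. One model held condition and experiment (5 residual degrees of freedom), and another 4 groups of 2 libraries (4 residual degrees of freedom) for effects within experiments and their difference. CPM are on TMM-scaled sizes, and those of marker sums and of Xist on unscaled totals. Marker sums were compared by exact permutation over libraries. On simulated counts for the 16495 genes, 66% of 100 genes changed by 1 log2 unit between conditions were recovered and 58% between experiments. Of those changed by 2, 96% were recovered in both. Within experiment 1 the shares were 26% and 86%. False calls made up 2.99% of calls between conditions, 4.35% between experiments and 6.67% within experiment 1. The changed genes were drawn from those with higher counts. Variation that genes share within a library was not simulated, so recovery in the data may be lower.

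The 10 genes and the gene lists were chosen with earlier results of these data known. Named pathway genes were the 8 with the smallest p between conditions and between experiments, the 5 most abundant per kilobase, and the tested partners and large Maf factors, of which 1 is not reported here. For Mafk, the 5 genes with the highest correlation were named, and for each of the 10 genes the most like of the others. Alternatives were DESeq2 1.42.0 and limma-voom (limma 3.58.1), other scaling, no filter, other models, and libraries left out.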

Additional observations from a re-analysis of the deposited data

Results flagged for a closer look

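Each of the 10 genes was checked in each condition for a library far from the other 3, which gave 20 groups of 4, and chance alone picks out about 1 in 20 such groups. Hmox1 was picked out in Treg-depleted replicate 2, at 11.7 CPM in a group that ran from 4.42 to 11.7 CPM, with a gap to the nearest library of 0.874 of the group's range, which is past Dixon's critical value for 4 values. Gclm was picked out in the same library, at 108 CPM in a group from 89.8 to 108 CPM, with a gap of 0.981 of the range. That library also had the fewest genes detected, 18605, the lowest total, 22330729 counts, and Xist at 72.0 CPM. The part of these traits in the Hmox1 and Gclm values was not tested.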

How the results depend on the processing

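With no filter on low counts, edgeR called 820 genes between conditions (339 higher, 481 lower), 6 of them among the 86 pathway genes. Within experiment 1 it called 1152 genes and 9 pathway genes, within experiment 2 132 and 1, for the difference between the experiments' effects 534 and 3, and between experiments 2443 and 24, with 4 of the 10 genes (Gclc, Nfe2l2, Nqo1 and Txnrd1). DESeq2 called 84 genes and 0 pathway genes between conditions, 721 and 5 within experiment 1, 1 and 0 within experiment 2, 182 and 1 for the difference of effects, and 2167 and 19 between experiments, with the same number, 4, of the 10 genes. With 1 library left out in turn, calls ran from 0 to 651 genes, 0 to 2 of the 10 and 0 to 8 pathway genes between experiments, from 0 to 442 genes and 0 to 5 pathway genes within experiment 1, and from 0 to 9 genes for the difference of effects. Without both Xist libraries there were 2 genes, 0 of the 10 and 0 pathway genes between experiments, 487 genes and 4 pathway genes within experiment 1, and 89 and 1 for the difference of effects. Without both libraries with the fewest genes detected, chosen after the data were seen, there were 0, 0 and 0 between experiments and 570 genes and 6 pathway genes within experiment 1. The cause was not tested.

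Signs changed when single libraries were left out for genes near 0. Between conditions the log2 fold change ran from -0.0312 to 0.0927 for Fbxw11, -0.0348 to 0.083 for Sqstm1, -0.0428 to 0.0526 for Cul3 (-0.032 without both Xist libraries), -0.31 to 0.0227 for Prdx1, -0.32 to 0.0328 for Gpx1, -0.46 to 0.069 for Txn1, -0.20 to 0.0142 for Rbx1 -0.008 to 0.21 for Btrc and -0.08 to 0.13 for Gclm. Between experiments it ran from -0.10 to 0.11 for Gclm and -0.14 to 0.0559 for Mafk. Of 1329 values of single genes under alternatives, 1176 kept their direction and side of the threshold or moved by less than the spread.

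By the letters A to D of the titles, deviations of same-lettered libraries from the condition means correlated at 0.06 to 0.287. Once the experiment means were also taken out, the correlation was -0.076 in experiment 1 and -0.104 in experiment 2. With 2 libraries per group, both letters of an experiment must give the same value, so this cannot settle whether letters mark pairs. The libraries were not taken as pairs. With the letter as a replicate block, 0 genes were called between conditions. With 2 libraries per group within an experiment, a group is assumed to vary like the others.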
